A study of Mus musculus with 6 samples.

Results

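The expanded kidney clonotypes were the T cell receptor β chains of CD4+ T cells that were read from at least 3 mRNA molecules in the kidney of 1 mouse. They were chosen by the number of unique molecular identifiers (UMIs), the random tags that mark each mRNA molecule before amplification. A clonotype was a coding CDR3 nucleotide sequence with its first-ranked V and J gene, and the UMIs of all clones with that combination were added up. Of 1716 coding kidney clonotypes, 164 were expanded, 247 had 2 UMIs and 1305 had a single UMI and formed the other side of the comparison. The 6 libraries of the series held 330061 clonotypes in all.

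All libraries came from C57BL/6 wildtype mice that had been operated on at both ureters. In these mice the right ureter was obstructed reversibly (RUUO) from day 0 to day 6, with the clip moved on days 2 and 4, the left ureter was obstructed (UUO) on day 17, and day 22 was the day of harvest. CD4+ T cells of the kidney and the spleen of 3 mice were isolated with kits and sorted by flow cytometry, with an additional negative isolation step for the kidney, so each mouse gave 1 kidney and 1 spleen library. No sham-operated or untreated mouse is part of these libraries, and they hold T cell receptor β mRNA alone, so no other marker of the sorted cells was measured.

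The β chain is assembled in the thymus by joining 1 V, 1 D and 1 J segment of the Trb locus. The CDR3 spans the joints, where bases are trimmed and non-templated bases are added, and it holds most of the contacts with the peptide antigen. When a T cell responds to its antigen it divides, and all daughter cells carry the same CDR3 nucleotide sequence. Some CDR3 sequences are made again and again by recombination, so that they occur in many animals, in many nucleotide versions and beside many sequences that differ from them by a single residue.

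The clonotypes with the most UMIs in each kidney are shown first, because they account for the upper end of the expanded class. Only CDR3s of up to 14 residues are spelled out as protein, and capitals mark the bases that were assigned neither to V nor to J, that is the D segment and the non-templated bases.

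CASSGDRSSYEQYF (kidney 1, Trbv15, Trbd1, Trbj2-7): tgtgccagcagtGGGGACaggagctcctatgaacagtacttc
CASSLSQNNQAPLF (kidney 1, Trbv26, no D, Trbj1-5): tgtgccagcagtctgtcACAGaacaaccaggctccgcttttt
16-residue CDR3 (kidney 1, Trbv5, Trbd2, Trbj2-1): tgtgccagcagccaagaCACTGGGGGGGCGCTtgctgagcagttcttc
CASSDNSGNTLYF (kidney 2, Trbv15, no D, Trbj1-3): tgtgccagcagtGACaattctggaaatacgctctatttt
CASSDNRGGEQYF (kidney 2, Trbv13-3, Trbd1, Trbj2-7): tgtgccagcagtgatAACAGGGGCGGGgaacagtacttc
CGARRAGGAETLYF (kidney 2, Trbv20, Trbd1, Trbj2-3): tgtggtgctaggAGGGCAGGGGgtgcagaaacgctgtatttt
15-residue CDR3 (kidney 3, Trbv1, no D, Trbj2-4): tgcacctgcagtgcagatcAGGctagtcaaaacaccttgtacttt
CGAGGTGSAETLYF (kidney 3, Trbv20, Trbd1, Trbj2-3): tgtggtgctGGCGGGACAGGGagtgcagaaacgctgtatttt

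These 8 sequences used 6 V genes and 6 J genes. Their junctions held between 3 and 15 bases that came from neither V nor J. Both 14-residue Trbv20 clonotypes joined Trbd1 to Trbj2-3 and differed in their junctions, and the 2 came from different mice.

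The depth of the kidney libraries was 773, 1248 and 693 UMIs in mice 1, 2 and 3. The expanded class numbered 53, 75 and 36 clonotypes, or 10.97%, 9.87% and 7.61% of the clonotypes of each kidney. It held 269, 466 and 180 UMIs, which were 34.8%, 37.3% and 26.0% of all UMIs. The single-molecule class numbered 356, 588 and 361 clonotypes and held 46.1%, 47.1% and 52.1% of the UMIs. These counts define the classes and are given as a description.

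Most expanded clonotypes lay close to the limit. Over the 3 kidneys 80 had 3 UMIs, 33 had 4 UMIs, 51 had 5 or more and 18 had 10 or more. The highest count was 20 in kidney 1, shared by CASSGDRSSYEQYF and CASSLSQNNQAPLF, 40 in kidney 2 for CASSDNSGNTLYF and 33 in kidney 3 for the 15-residue Trbv1 clonotype. A UMI counts an mRNA molecule and not a cell, so more cells of a clone and more receptor mRNA per cell cannot be told apart, and the number of cells behind each library is not given in the sources used here. Clonotypes just inside the limit, with 3 UMIs, had a median of 2369, 1282 and 1650 reads in kidneys 1, 2 and 3, and those just outside, with 2 UMIs, had 1384, 923 and 1070. At 3 UMIs 63 of 80 clonotypes were also read in the spleen of their mouse, and at 2 UMIs 133 of 247.

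**Figure D1:**
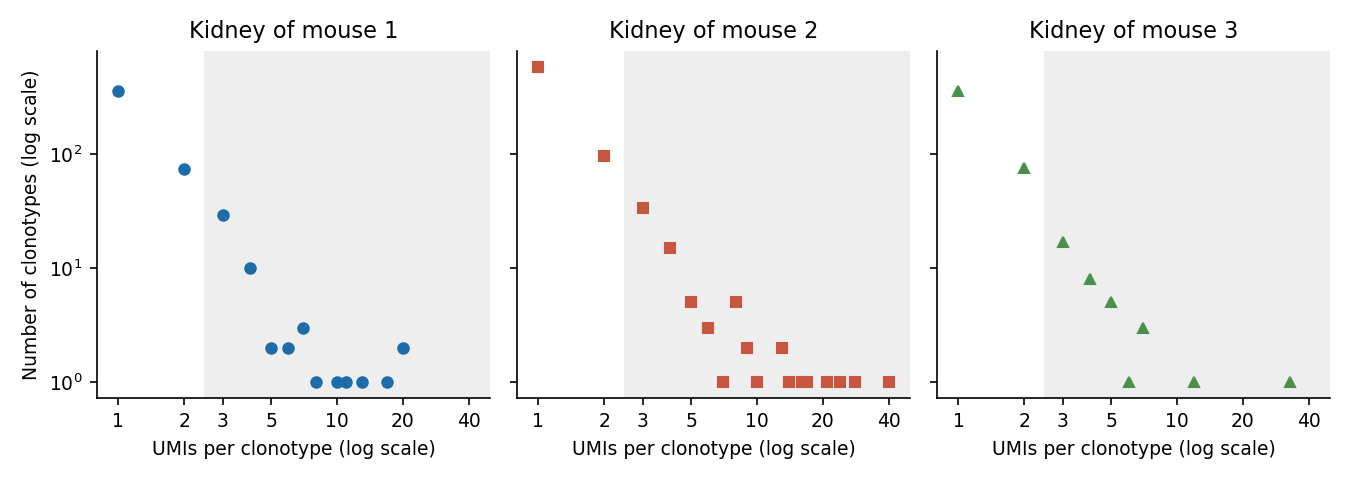
Number of coding clonotypes (y axis, log scale) at each number of UMIs per clonotype (x axis, log scale) in the 3 kidney libraries, with the expanded range of at least 3 UMIs shaded. Each panel falls from at least 356 clonotypes at 1 UMI to 1 or 2 clonotypes at each count of 10 UMIs or more, with the highest at 20, 40 and 33 UMIs.

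Each UMI was read many times. The median reads per UMI were 790, 437 and 655 for expanded and 883, 502 and 665 for single-molecule clonotypes in kidneys 1, 2 and 3. Expanded clonotypes were the lower class in 3 of 3 kidneys, with a mean difference of -55.9 ± 41.9 reads (SD, n = 3 kidneys). The exact two-sided sign-flip permutation test over 3 kidneys gave p = 0.25, which is the smallest p that 3 pairs allow, and an adjusted p of 0.85 over the 17 comparisons of this kind. UMI counts and read counts come from the same molecules, so this value is related to the choice of the members.

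The first question was whether expanded clonotypes carried longer or shorter CDR3s. The mean CDR3 length was 14.0, 13.9 and 14.0 residues in the expanded class and 13.8, 14.0 and 13.9 residues in the single-molecule class of kidneys 1, 2 and 3. Expanded CDR3s were longer in kidneys 1 and 3 and shorter in kidney 2, with a mean difference of 0.056 ± 0.167 residues (SD, n = 3, exact sign-flip permutation p = 0.75, adjusted p = 1). The median was 14 residues in both classes of every kidney. Expanded CDR3s ran from 10 to 18 residues and single-molecule CDR3s from 8 to 18, and 14 residues was the most frequent length in both, at 29.3% and 31.4% of clonotypes.

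The number of non-templated nucleotides, a measure of how far a junction departs from the germline, averaged 2.74, 3.23 and 3.17 in expanded and 2.93, 2.95 and 2.86 in single-molecule clonotypes. The expanded value was lower in kidney 1 and higher in kidneys 2 and 3, a difference of 0.131 ± 0.281 nucleotides (SD, n = 3, exact permutation p = 0.5, adjusted p = 0.944). No non-templated base at all was found in 21 of 164 expanded and 195 of 1305 single-molecule clonotypes. The spleens averaged between 3.07 and 3.11 non-templated nucleotides over all their clonotypes. Where no D segment was called, every base between V and J was counted as non-templated, so the number can include D bases.

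In the sequence neighbourhood the expanded class stood below the single-molecule class in each kidney. A neighbour is a different CDR3 amino acid sequence of equal length that differs at 1 residue, and neighbours were counted in the spleens of the other mice, which did not take part in choosing the members. Expanded kidney clonotypes had 6.63, 4.53 and 5.10 neighbours per spleen of another mouse in kidneys 1, 2 and 3. Single-molecule clonotypes had 7.76, 6.96 and 7.24. The 3 expanded class means were all below the 3 single-molecule class means. The clonotypes themselves overlapped widely, with up to 31, 36 and 29 neighbours in expanded and 40, 43 and 53.5 in single-molecule clonotypes. Over the 3 kidneys the classes averaged 5.42 ± 1.09 and 7.32 ± 0.402 (SD, n = 3), a difference of -1.90 ± 0.689 in mean neighbours. The expanded mean was lower in 3 of 3 kidneys (exact permutation p = 0.25, adjusted p = 0.85), so the test is at the limit of what 3 pairs can give. Each spleen was searched for each of the other mice. Counts in other spleens, here and below, are therefore not fully independent between the 3 mice.

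Clonotypes with 2 UMIs did not fall between the classes in every mouse, with 7.08, 6.78 and 9.26 neighbours in kidneys 1, 2 and 3. Counted in the spleen of the same mouse, expanded clonotypes had 7.02, 6.17 and 3.83 neighbours and single-molecule clonotypes 8.14, 9.08 and 5.53. This difference of -1.91 ± 0.912 (SD, n = 3) was again negative in 3 of 3 kidneys (exact permutation p = 0.25, adjusted p = 0.85). It was -0.648 with expanded clonotypes from 2 UMIs and -1.24 from 5 UMIs, with 1 of 3 kidneys opposite at each limit. The difference in other spleens was -1.79 within the same CDR3 length, -1.53 within the same Trbv gene, -1.85 at the same number of non-templated nucleotides and -1.999 among clonotypes found in the spleen of their own mouse, settings chosen after seeing the data. It was -0.449 when expanded clonotypes were taken from 2 UMIs and -1.29 from 5 UMIs, and at each of these limits 1 of 3 kidneys had the opposite sign. It was -0.810 when only spleen clonotypes of at least 2 UMIs were searched and -1.25 with medians in place of means, a setting chosen after seeing the data, both negative in 3 of 3 kidneys.

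Some of the named clonotypes lay in dense and some in sparse neighbourhoods. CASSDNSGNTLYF, with the most UMIs of kidney 2, had 26 neighbours per spleen of another mouse. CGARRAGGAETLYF had 1, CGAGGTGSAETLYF had 2 and the 16-residue Trbv5 clonotype of kidney 1 had 1.5. None of the last 3 CDR3s was found in the spleen of another mouse. No neighbour in those spleens was found for 7 of 53, 17 of 75 and 5 of 36 expanded clonotypes, or 13.2%, 22.7% and 13.9%, and for 14.3%, 14.8% and 13.0% of single-molecule clonotypes.

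**Figure D2:**
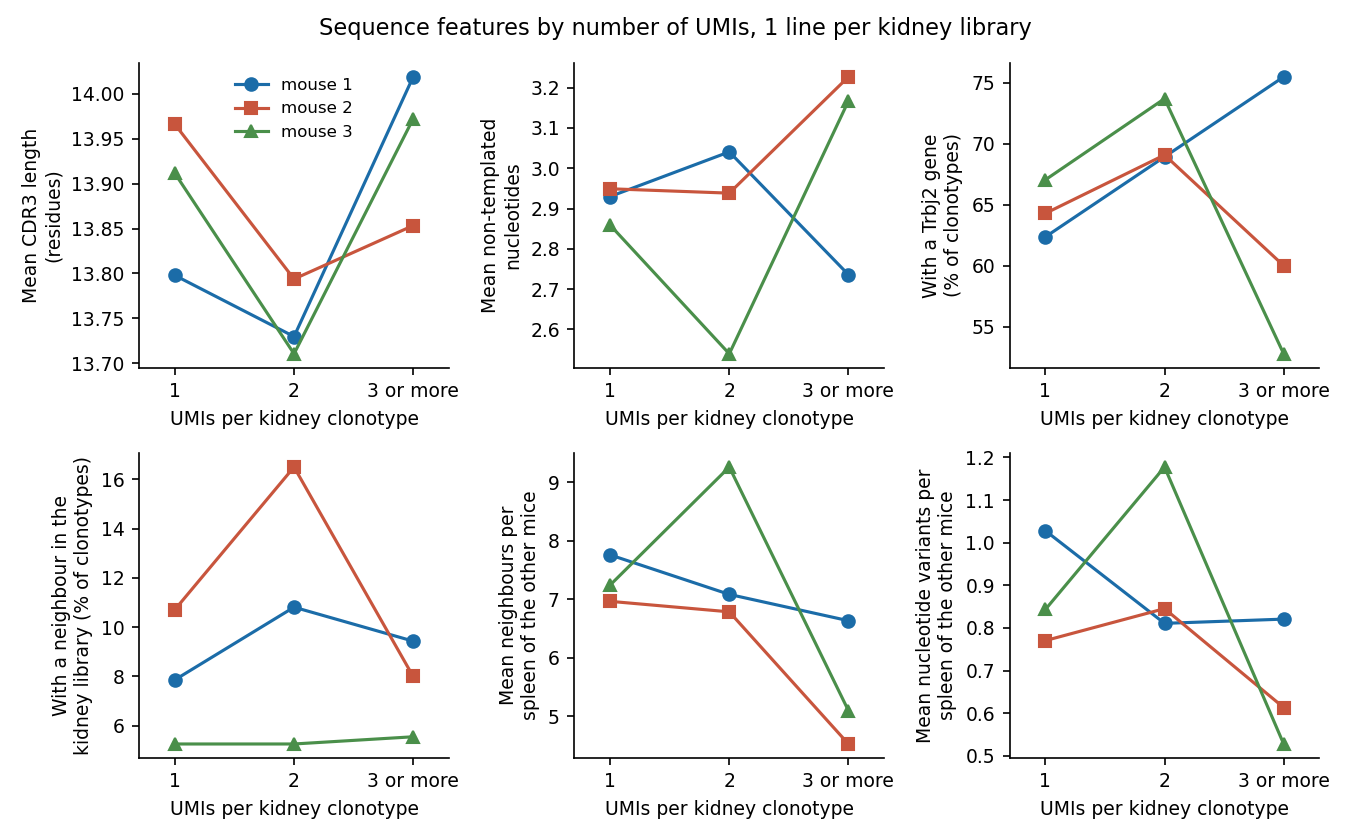
Sequence features of kidney clonotypes with 1, 2 and 3 or more UMIs (x axis), as the mean or percentage named on each y axis, with 1 line per mouse; the y axes do not start at 0. In the panels of neighbours and of nucleotide variants in the spleens of the other mice each line ends lower at 3 or more UMIs than it began at 1 UMI, and in the other 4 panels the mice differ in direction.

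The number of nucleotide versions of a CDR3 gave the same order. Per spleen of another mouse, the CDR3s of expanded clonotypes were found in 0.821, 0.613 and 0.528 nucleotide versions and those of single-molecule clonotypes in 1.03, 0.770 and 0.843. The difference was -0.227 ± 0.081 versions (SD, n = 3), lower in 3 of 3 kidneys (exact permutation p = 0.25, adjusted p = 0.85), and with expanded clonotypes from 2 UMIs it was -0.038, with the opposite sign in 1 kidney. From 5 UMIs it was -0.222, again with the opposite sign in 1 kidney. Within the own mouse, the spleen gave the opposite sign, with 1.58, 1.71 and 1.03 versions for expanded and 1.46, 1.52 and 0.842 for single-molecule clonotypes, a difference of 0.165 ± 0.036 (exact permutation p = 0.25, n = 3, adjusted p = 0.85). That count includes the clonotype itself, which was in the spleen of its mouse for 142 of 164 expanded and 549 of 1305 single-molecule clonotypes, and without the own sequence the difference was -0.243.

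The CDR3 amino acid sequence was found in the spleen of at least 1 other mouse for 23 of 53, 21 of 75 and 15 of 36 expanded clonotypes. These were 43.4%, 28.0% and 41.7%, with exact 95% intervals of 29.8 to 57.7%, 18.2 to 39.6% and 25.5 to 59.2%, and intervals here and below cover counting error only. The single-molecule shares were 41.9%, 44.9% and 43.5%. The classes lay apart in kidney 2 and within each other's counting error in kidneys 1 and 3, and the difference of -5.73 ± 9.82 percentage points (SD, n = 3) gave an exact permutation p of 0.5 and an adjusted p of 0.944. Without kidney 2 it was -0.141 percentage points.

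The same contrast was then taken in the spleens, between clonotypes of at least 3 UMIs and of 1 UMI, a comparison chosen after seeing the data. Spleen clonotypes of at least 3 UMIs had 9.06, 8.05 and 11.3 neighbours per spleen of another mouse in mice 1, 2 and 3, and spleen clonotypes of 1 UMI had 6.31, 5.64 and 7.14. The spleen difference was 3.10 ± 0.911 neighbours (SD, n = 3) and positive in 3 of 3 mice, where the kidney difference was negative in 3 of 3. Kidney difference minus spleen difference was -3.87, -4.84 and -6.27 in mice 1, 2 and 3, a mean of -5.00 ± 1.21 (SD, n = 3). The exact sign-flip permutation test of this difference over the 3 mice gave p = 0.25, the smallest possible, and an adjusted p of 0.292 over the 7 measures compared in this way. The 3 values share the spleens that were searched, so they are not fully independent.

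The spleens held 8962, 17107 and 3046 clonotypes of at least 3 UMIs, which were 8.16%, 12.2% and 3.90% of their clonotypes, so the limit of 3 UMIs does not select the same upper share in both organs. With a spleen limit of 10 UMIs, which 278, 424 and 61 spleen clonotypes reached (0.253%, 0.302% and 0.078%), the spleen difference was 5.35 ± 0.484 neighbours. With a limit of 20 UMIs, which 76, 102 and 13 clonotypes reached (0.069%, 0.073% and 0.017%), it was 2.64 ± 0.902. These stricter limits lie further from the expanded shares of the kidneys, 10.97%, 9.87% and 7.61%, so they do not match the upper shares of the organs. Kidney difference minus spleen difference was -7.25 and -4.54 at those limits, -4.75 within the same Trbv gene and -5.82 without Trbv1, and negative in 3 of 3 mice each time, all settings chosen after seeing the data.

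Nucleotide versions also had opposite signs in the organs. Spleen clonotypes of at least 3 UMIs exceeded those of 1 UMI by 0.692 ± 0.246 versions per spleen of another mouse, and kidney difference minus spleen difference was -0.919 ± 0.327 (SD, n = 3, lower in 3 of 3 mice, exact permutation p = 0.25, adjusted p = 0.292). For non-templated nucleotides the spleen difference was -0.541 ± 0.073, negative in 3 of 3 mice, and kidney difference minus spleen difference was 0.671 ± 0.317 nucleotides, positive in 3 of 3 mice with the same exact permutation p of 0.25 over n = 3 mice and the same adjusted p of 0.292.

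**Figure D3:**
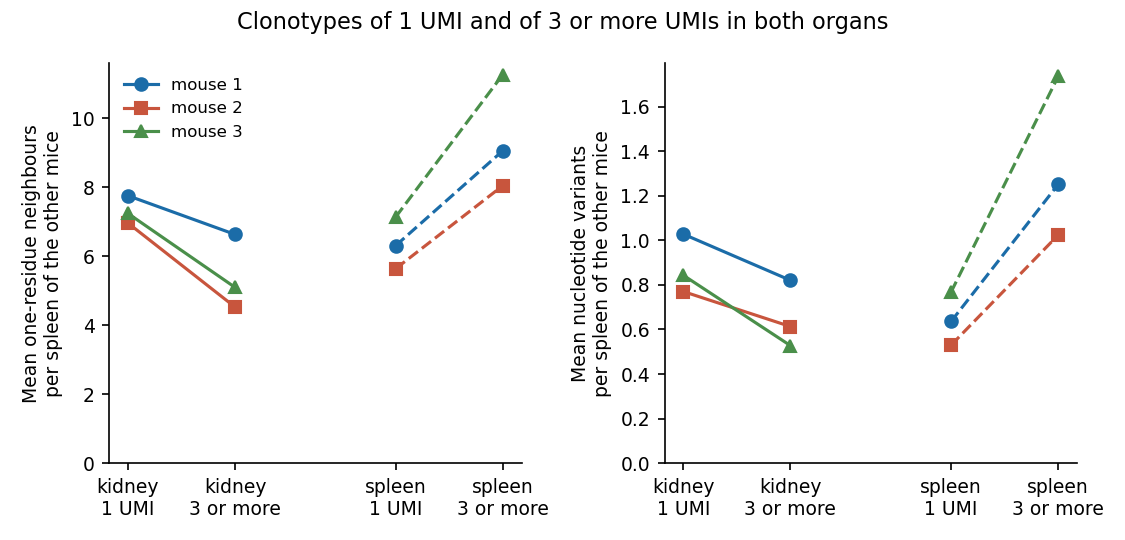
Mean one-residue neighbours (left) and mean nucleotide variants (right) per spleen of the other mice, on y axes that start at 0, for kidney and spleen clonotypes of 1 UMI and of 3 or more UMIs, with 1 line per mouse. The kidney lines descend in 3 of 3 mice and the spleen lines ascend in 3 of 3.

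Neighbours inside the same kidney library were counted to ask whether expanded clonotypes lay beside related receptors. A neighbour in the kidney library was found for 5 of 53, 6 of 75 and 2 of 36 expanded clonotypes, or 9.43%, 8% and 5.56%, with exact 95% intervals of 3.13 to 20.7%, 2.99 to 16.6% and 0.68 to 18.7%. For single-molecule clonotypes the shares were 7.87%, 10.7% and 5.26%. The difference was -0.284 ± 2.20 percentage points (SD, n = 3, exact permutation p = 1, adjusted p = 1) and its sign was not the same in the 3 kidneys.

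Each of these 13 expanded clonotypes had 1 neighbouring CDR3, and they formed 14 pairs of clonotypes. In 11 pairs the neighbour had 1 UMI, in none was it expanded, and in 8 both sides used the same V and the same J gene. The members of a pair were between 2 and 6 nucleotides apart. No pair differed by 1 nucleotide, the distance that a single sequencing or polymerase error would leave. The clones had been assembled before deposit, so sequences removed in that step cannot be seen here.

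Of the pairs, 3 are shown with the codon that differs in capitals, because they cover a pair from different V genes, a close pair of 1 V gene and a pair that was not read in the spleen of its mouse. Residues are counted from 1 at the first cysteine of the CDR3.

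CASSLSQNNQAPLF (kidney 1, 20 UMIs, Trbv26): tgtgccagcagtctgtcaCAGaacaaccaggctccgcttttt
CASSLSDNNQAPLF (kidney 1, 1 UMI, Trbv29): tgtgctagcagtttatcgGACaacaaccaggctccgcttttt
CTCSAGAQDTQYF (kidney 1, 3 UMIs, Trbv1): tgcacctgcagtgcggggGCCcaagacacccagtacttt
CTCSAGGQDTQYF (kidney 1, 1 UMI, Trbv1): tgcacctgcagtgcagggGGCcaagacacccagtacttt
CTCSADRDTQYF (kidney 3, 4 UMIs, Trbv1): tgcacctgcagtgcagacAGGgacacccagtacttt
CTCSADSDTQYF (kidney 3, 1 UMI, Trbv1): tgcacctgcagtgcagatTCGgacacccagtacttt

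The first pair differed by Q7D and by 6 nucleotides, over 2 V genes and 1 J gene. The second differed by A7G and by 2 nucleotides. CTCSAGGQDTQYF was also the neighbour of a further expanded Trbv1 clonotype of kidney 1, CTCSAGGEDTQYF with 3 UMIs, from which it differed by E8Q. The third pair differed by R7S, and neither side had a UMI in the spleen of mouse 3, while the spleen of mouse 1 held the nucleotide sequence of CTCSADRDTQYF with 2 UMIs.

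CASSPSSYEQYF, a Trbv4 clonotype with 10 UMIs in kidney 2 and 193 UMIs in the spleen of that mouse, had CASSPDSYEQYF as its kidney neighbour (S6D), read with 2 nucleotide sequences of 2 and 1 UMIs. It had 24 neighbours per spleen of another mouse and 11.5 nucleotide versions there.

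Few clonotypes of either class shared their CDR3 with another kidney. The CDR3 amino acid sequence was found in another kidney for 5 of 164 expanded and 19 of 1305 single-molecule entries. These pooled counts are small and were not tested, so no direction is read from them. The 5 expanded entries count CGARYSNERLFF once in kidney 2 and once in kidney 3. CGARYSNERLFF is shown because it was the only CDR3 that was expanded in more than 1 kidney, with the junction bases in capitals.

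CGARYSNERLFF (kidneys 2 and 3, Trbv20, no D, Trbj1-4): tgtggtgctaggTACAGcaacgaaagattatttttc

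Its nucleotide sequence was identical in both mice. It had 5 UMIs in kidney 2, 4 in kidney 3 and 0 in kidney 1, and 4, 3 and 1 UMIs in the spleens of mice 1, 2 and 3. It thus occurred in 3 of 3 spleens at a low level. No D segment was called for it, so all 5 of its junction bases were counted as non-templated. The other shared CDR3s were expanded in 1 kidney and had 1 UMI in the other, with nucleotide sequences that were 1 to 3 bases apart: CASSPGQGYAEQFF (4 UMIs in kidney 1), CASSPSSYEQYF (10 UMIs in kidney 2) and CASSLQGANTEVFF (3 UMIs in kidney 2). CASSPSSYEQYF used Trbv4 in kidney 2 and Trbv3 in kidney 1, and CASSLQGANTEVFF used Trbv4 in kidney 2 and Trbv15 in kidney 1.

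V gene use was compared next, since the V segment encodes the part of the receptor that touches the MHC molecule and the start of the CDR3. Expanded clonotypes used 16 V genes and 12 J genes in 98 combinations, and single-molecule clonotypes used 22 V genes and 12 J genes in 215. These counts were not adjusted for class size, which was 164 expanded and 1305 single-molecule clonotypes. They therefore do not compare how varied the classes are. Of 20 V genes tested with edgeR's quasi-likelihood test, 0 differed between the classes after Benjamini-Hochberg adjustment (0.0% called), 0 had an unadjusted p under 0.05, and DESeq2 also called 0. The smallest adjusted p was 0.334. In 3 of 3 kidneys 2 genes were used more and 7 less by the expanded class. The 7 include Trbv12-1, Trbv12-2, Trbv14 and Trbv29, rare genes with 0 expanded clonotypes in every kidney. Such a gene counts as lower wherever the larger single-molecule class used it at all, so the 2 numbers show no direction.

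Trbv1, at GRCm38 chromosome 6, 40891296 to 40891885, was the V gene with the highest expanded share. It was used by 8 of 53, 12 of 75 and 8 of 36 expanded clonotypes, or 15.1%, 16% and 22.2%, and by 13.2%, 9.52% and 11.6% of single-molecule clonotypes. The expanded share of 17.8 ± 3.88% exceeded the single-molecule share of 11.5 ± 1.85% (SD, n = 3) in 3 of 3 kidneys, and the ratio of 0.62 on the log2 scale had an edgeR adjusted p of 0.341. Trbv1 encodes a cysteine inside the CDR3. Of the clonotypes with such a second cysteine, 28 of 28 expanded and 145 of 146 single-molecule clonotypes used Trbv1. In the spleens Trbv1 made up 22.2%, 18.5% and 16.4% of clonotypes of at least 3 UMIs and 9.01%, 7.86% and 9.97% of those of 1 UMI. Its share of all spleen clonotypes was 11.3%, 10.1% and 10.8%.

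Trbv13-2 (chromosome 6, 41121396 to 41121832) was the most used V gene of single-molecule clonotypes. It made up 9.88 ± 4.08% of the expanded and 14.5 ± 1.52% of the single-molecule class (SD, n = 3), 15 and 191 clonotypes, lower in 3 of 3 kidneys with a log2 ratio of -0.66 and an edgeR adjusted p of 0.363. The expanded and single-molecule shares were 13.2% and 15.4% in kidney 1, 5.33% and 15.3% in kidney 2 and 11.1% and 12.7% in kidney 3, and without kidney 2 the log2 ratio was -0.21. Trbv5 (chromosome 6, 41062359 to 41062803) had 7.96 ± 0.395% and 7.98 ± 1.81%, a log2 ratio of -0.06 with an edgeR adjusted p of 0.907. Trbv13-3 was used by 10.4 ± 3.07% and 8.02 ± 0.612%, higher in 3 of 3 kidneys with an edgeR adjusted p of 0.707. Trbv16 was used by 2.26 ± 2.05% and 4.88 ± 1.18%, lower in 3 of 3, with 4 expanded clonotypes and an edgeR adjusted p of 0.385. Trbv13-3 and Trbv16 fell outside the rule for named genes.

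The spread between kidneys was wide for several genes of the expanded class. Trbv13-1 was used by 9 of 53 expanded clonotypes in kidney 1, 2 of 75 in kidney 2 and 1 of 36 in kidney 3. Trbv20, the gene of 3 of the sequences printed as most abundant or shared, was used by 2, 9 and 4 expanded clonotypes, or 8.96 ± 4.51% against 4.67 ± 0.378% of single-molecule clonotypes (SD, n = 3). It was higher in 2 of 3 kidneys, with a log2 ratio of 0.97 and an edgeR adjusted p of 0.334. These genes fell outside the rule for named genes and were chosen after their values were seen.

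In all, 6 V genes of single-molecule clonotypes were not found in the expanded class. Trbv29 (chromosome 6, 41271403 to 41271881), Trbv12-2 (chromosome 6, 41118864 to 41119364) and Trbv14 (chromosome 6, 41135167 to 41135616) had 0 of 164 expanded clonotypes and 18, 17 and 15 of 1305 single-molecule clonotypes, with edgeR adjusted p of 0.334 each. Trbv12-1, Trbv30 and Trbv21 had 0 expanded and 15, 5 and 1 single-molecule clonotypes. A count of 0 in 164 allows a share of up to 1.83%, and the largest of the single-molecule shares, 1.38% for Trbv29, lies under this, so no fold is given.

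**Figure D4:**
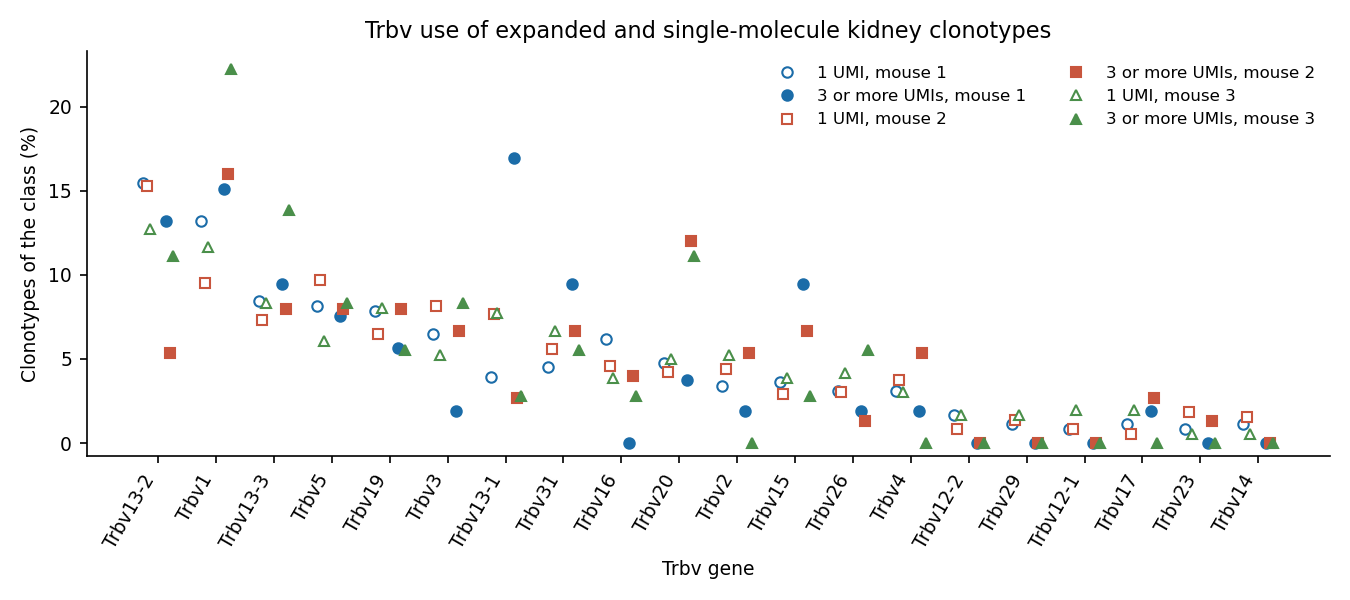
Percentage of the expanded (filled) and single-molecule (open) clonotypes of each kidney (y axis) that used each of the 20 tested Trbv genes (x axis, ordered by the single-molecule mean), with 1 symbol per mouse. Trbv1 lies higher and Trbv13-2 lower in the expanded class of each mouse, and the filled symbols of Trbv13-1 and Trbv20 spread widely between mice.

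Trbv13-2, Trbv29 and Trbv1 are the V genes most used by CD1d-restricted natural killer T cells of the mouse, some of which carry CD4, and conventional T cells use them too. Together they made up 43 of 164 expanded clonotypes (28.3%, 21.3% and 33.3% in kidneys 1, 2 and 3) and 354 of 1305 single-molecule clonotypes (29.8%, 26.2% and 26.0%). Of these genes, 2 were used less and 1 more by the expanded class, and no gene of the list passed the test. The α chain, which defines these cells, was not measured.

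J gene use did not separate the classes either. Of 12 J genes, 0 were called by edgeR after adjustment (0.0% called), 0 had an unadjusted p under 0.05 and 0 were called by DESeq2. The most used were Trbj2-7 with 14.6 ± 5.33% of expanded and 16.9 ± 1.72% of single-molecule clonotypes, Trbj2-5 with 15.4 ± 4.45% and 11.7 ± 0.896%, and Trbj2-1 with 12.8 ± 7.20% and 10.6 ± 1.67% (SD, n = 3). Trbj1-5 was higher in 3 of 3 kidneys (5.26 ± 2.45% and 3.19 ± 1.23%, edgeR adjusted p = 0.475). Trbj2-3 was lower in 3 of 3 (5.92 ± 3.29% and 10.3 ± 2.23%, edgeR adjusted p = 0.475), as was Trbj1-3 (edgeR adjusted p = 0.500), whose 6 expanded clonotypes all came from kidney 2.

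The J genes lie in 2 clusters, each behind its own D gene, at chromosome 6, from 41533864 (Trbj1-1) to 41543856 (Trbj2-7). A gene of the Trbj2 cluster was used by 40 of 53, 45 of 75 and 19 of 36 expanded clonotypes, 62.7 ± 11.6% on average (SD, n = 3), and by 62.4%, 64.3% and 67.0% of single-molecule clonotypes in kidneys 1, 2 and 3. Kidney 1 stood above its single-molecule value by 13.1 percentage points, kidney 3 differed by -14.3, and in both the exact 95% interval of the expanded share, 61.7 to 86.2% and 35.5 to 69.6%, held the single-molecule value. The mean difference was -1.81 ± 13.9 percentage points (SD, n = 3, exact permutation p = 0.75, adjusted p = 1).

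The D segment was called as Trbd1 in 37.7%, 52.0% and 52.8% of expanded and 39.3%, 43.7% and 43.8% of single-molecule clonotypes. Trbd2 was called in 41.5%, 18.7% and 22.2% against 28.4%, 27.7% and 29.1%. No D was called in 20.8%, 29.3% and 25.0% against 32.3%, 28.6% and 27.1%. The differences were 5.24 ± 5.92, -0.926 ± 12.2 and -4.31 ± 6.43 percentage points (SD, n = 3), with exact permutation p of 0.5, 1 and 0.5 and adjusted p of 0.944, 1 and 0.944. D segments are short and both were scored alike in 11.3%, 8% and 8.33% of expanded clonotypes, where the first named was taken. Trbd2, the D gene of the Trbj2 cluster, was also called with Trbj1-1, as in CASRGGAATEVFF of kidney 2. The D calls are therefore uncertain beyond these ties.

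The most frequent V and J combination of the expanded class was Trbv1 with Trbj2-7, in 7 expanded (4.27%) and 17 single-molecule clonotypes (1.30%). Trbv1 with Trbj2-5, the combination of the family around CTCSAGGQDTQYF, followed with 6 and 18. Counts were pooled over the kidneys and no combination was tested. Both were picked for their high expanded counts, which by itself favours a larger expanded share.

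The residues in the centre of the CDR3, after its first 4 and last 4 residues were left out, are those that most often touch the peptide. Of 19 residues tested, edgeR and DESeq2 called 0 (0.0% called), and 0 had an unadjusted p under 0.05. Glycine made up 22.1 ± 3.37% of the centre in expanded and 22.4 ± 0.949% in single-molecule clonotypes (SD, n = 3), alanine 10.3 ± 0.642% and 8.60 ± 0.309%, and aspartate 9.66 ± 0.763% and 9.69 ± 0.428%. Alanine was higher in 3 of 3 kidneys with a log2 ratio of 0.25. Proline (1.98% and 2.71%), lysine (0.516% and 0.617%) and tyrosine (3.35% and 4.12%) were lower in 3 of 3 kidneys with log2 ratios of -0.48, -0.31 and -0.26. The edgeR adjusted p was 0.955 for each of these 6 residues.

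Scores of the centre gave the same picture. Mean hydropathy on the Kyte-Doolittle scale was -1.17 ± 0.106 in expanded and -1.19 ± 0.061 in single-molecule clonotypes, mean net charge was -0.508 ± 0.118 and -0.532 ± 0.002, and glycines per centre were 1.32 ± 0.218 and 1.32 ± 0.075 (SD, n = 3). Exact permutation p over n = 3 pairs was 1, 0.75 and 1, with an adjusted p of 1 for all of them. In none of these scores did the 3 kidneys have the same sign.

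The spleen of the same mouse held 45 of 53, 68 of 75 and 29 of 36 expanded clonotypes. Among those found, the median was 8, 11 and 4 spleen UMIs, against 4, 4 and 2 for single-molecule clonotypes, and the highest was 359, 234 and 101 UMIs. Together the expanded clonotypes accounted for 0.849%, 0.892% and 0.336% of the spleen UMIs of mice 1, 2 and 3. The single-molecule clonotypes, of which there were 1305 in place of 164, accounted for 0.804%, 0.822% and 0.521%.

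The clonotypes with the most kidney UMIs were frequent in the spleen in mice 1 and 2. In mouse 1 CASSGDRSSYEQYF had 96 spleen UMIs and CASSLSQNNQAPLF 86, ranks 7 and 8 of that spleen. In mouse 2 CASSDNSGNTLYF, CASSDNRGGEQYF and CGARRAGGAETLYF had 94, 101 and 93, ranks 7, 5 and 8. In mouse 3 the 15-residue Trbv1 clonotype had 33 UMIs in the kidney and 4 in the spleen, rank 427, and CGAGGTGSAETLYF had 12 and 30, rank 4. None of these clonotypes, defined by nucleotide sequence, had a UMI in any library of another mouse. As amino acid sequences, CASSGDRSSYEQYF and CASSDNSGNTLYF were found in the spleens of 2 other mice and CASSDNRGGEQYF in that of 1. The other CDR3s named in this paragraph were not found there.

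The spleen of the same mouse held no UMI of 22 expanded clonotypes, and 1 of these had at least 5 UMIs. It is shown as the clonotype with the most kidney UMIs among those not read in the spleen.

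15-residue CDR3 (kidney 3, Trbv13-2, Trbd2, Trbj2-2): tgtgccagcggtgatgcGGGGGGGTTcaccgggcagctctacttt

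As a nucleotide clonotype it had 5 UMIs in kidney 3 and 0 in the other 5 libraries. The CDR3 amino acid sequence was found in the spleen of 1 other mouse. Its 151 reads per UMI were under the median of 655 for expanded clonotypes of that kidney.

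**Figure D5:**
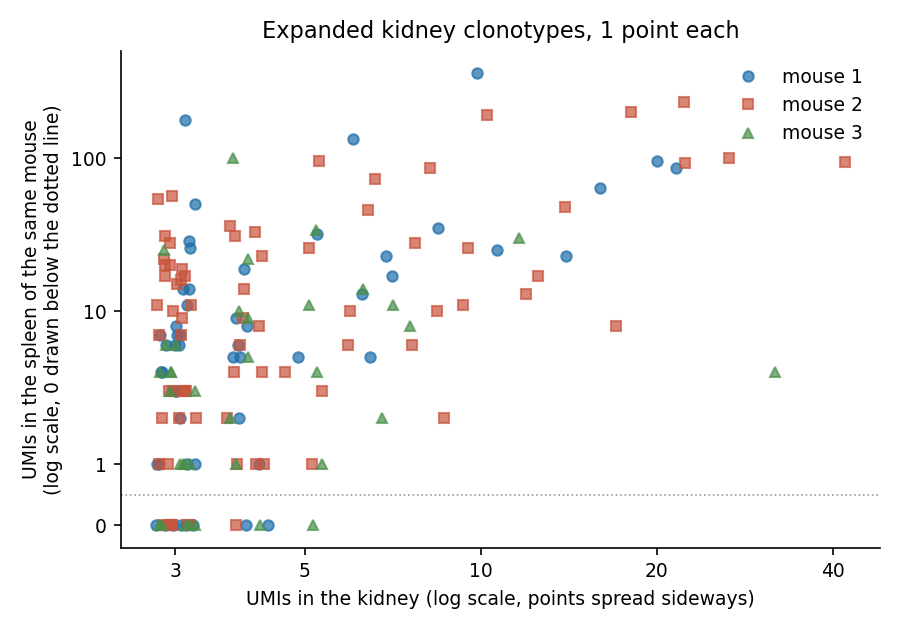
UMIs of each of the 164 expanded clonotypes in the kidney (x axis, log scale, points spread slightly sideways) and in the spleen of the same mouse (y axis, log scale, 0 drawn below the dotted line), coloured by mouse. The 22 points below the line have between 3 and 5 kidney UMIs, and the point at 33 kidney UMIs has 4 spleen UMIs.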

How the data were processed

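T cell receptor β libraries with UMIs were analysed from CD4+ T cells of 3 kidneys and 3 spleens. The authors amplified the β chain by 5′ RACE with a UMI in the template-switching oligonucleotide, split each product into technical replicates for a later PCR and assembled clones with MiXCR. The deposited tables give UMI counts and read counts per clone, and technical replicates are not separated in them. The submitters' processing notes name GRCm38 and R 4.4.2.

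Coding clones (no stop or frame shift in the CDR3) were kept and summed by CDR3 nucleotide sequence, first V and first J gene. Non-coding clones were left out. No column of per-sample values went unused (0 columns). Non-templated nucleotides are CDR3 bases outside the V, D and J matches, and without a D call all bases between V and J. Class means were compared within each kidney by the exact two-sided sign-flip permutation test, with Benjamini-Hochberg adjustment over 17 comparisons. V, J and residue counts per class and kidney were tested with edgeR 4.0.16 (quasi-likelihood, class totals as offsets, the kidney as a block, features with at least 10 counts), and with DESeq2 1.42.0 as an alternative. The block follows from the design, because both classes came from the same library. The code was tested on simulated data. Trb coordinates are RefSeq's for GRCm38.p6.

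The members, lists and tests were chosen with earlier results of these data known. Named clonotypes were the 3 with the most UMIs per kidney (ties at the third place in kidney 3 were left out), those with the most kidney neighbours (up to 3 per kidney), those with at least 5 UMIs and no UMI in their spleen, and those with a CDR3 in another kidney. Only some of them are described. Named genes and residues were the 3 most used and the 3 with the largest log2 ratio of 1 direction in 3 of 3 kidneys. Alternatives changed the UMI limit, the clonotype definition, the neighbour definition, the scaling and the test, and left out each kidney. Each library is 1 mouse. The sign-flip p-values rest on 3 paired differences, 1 per mouse. The edgeR p-values come from clonotype or residue counts per class and kidney, so they also carry counting error.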

Additional observations from a re-analysis of the deposited data

Results flagged for a closer look

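In this contrast, chosen after seeing the data, neighbours and nucleotide versions differed in opposite directions in the kidney and in the spleen. Between clonotypes of at least 3 UMIs and of 1 UMI, every kidney had a negative and every spleen a positive difference. Kidney difference minus spleen difference averaged -5.00 one-residue neighbours per spleen of another mouse, -4.96 one-residue neighbours in the spleen of the same mouse and -0.919 nucleotide versions per spleen of another mouse. Each was negative in 3 of 3 mice, with an exact sign-flip permutation p of 0.25 over n = 3 mice, the smallest possible. Depth differed between the organs, at 773, 1248 and 693 UMIs per kidney against 160179, 224811 and 97735 UMIs per spleen of mice 1, 2 and 3, and its part in the difference was not tested.

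Clones outside the comparisons also reached the UMI limit. Of 113 non-coding kidney clones, which carry a stop or a frame shift in the CDR3, 7 had at least 3 UMIs, 1 in kidney 1, 5 in kidney 2 and 1 in kidney 3. The highest had 4, 3 and 4 UMIs.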

How the results depend on the processing

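The lower number of neighbours per spleen of another mouse (-1.90) kept the sign of its mean under every alternative run and ranged from -2.29 to -1.63 without 1 of the kidneys, but it was -0.449 with expanded clonotypes from 2 UMIs, -0.810 with spleen clonotypes from 2 UMIs and -1.25 with medians. Without the replicate block the paired value stayed -1.90 by construction with an exact permutation p of 0.1, the smallest that 3 against 3 allows. Without the block V, J and residue calls stayed at 0. Kidney difference minus spleen difference lay between -5.56 and -4.36 without 1 of the mice. With expanded clonotypes taken from 2 UMIs the sign turned for mean length (-0.070), non-templated nucleotides (-0.00636), hydropathy (-0.074), net charge (-0.024), the share with a kidney neighbour (1.51 percentage points), mean kidney neighbours (0.025), the Trbj2 share (3.35), Trbv14 (log2 0.35), Trbv5 (0.23), Trbj2-7 (0.0292) and lysine (0.27). From 5 UMIs it turned for glycines (0.084), Trbd2 (6.16), the Trbj2 share (2.36), Trbj2-5 (log2 -0.24), Trbj2-7 (0.47), aspartate (-0.43) and glycine (0.0769). Clonotypes defined by amino acid sequence turned the share with a kidney neighbour (0.4003) and Trbv5 (0.10), and a required shared V gene turned that share (0.705) and mean kidney neighbours (0.00157). Centres without 3 residues at each end turned hydropathy (-0.016), TMM scaling turned aspartate (-0.0024), and UMIs in place of clonotypes turned Trbj2-1 (-0.16) and Trbj2-7 (0.0113) and gave 4 V gene calls. These 4 genes had 0 expanded clonotypes, and UMI counts chose the classes and weigh molecules of 1 clone as if they were independent, so these calls support no difference. The median difference in length was 0. Nucleotide versions in the spleen of the same mouse turned to -0.243 without the own sequence and -0.279 among clonotypes of that spleen.

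Leaving out 1 kidney gave ranges of -0.026 to 0.141 for length, -0.039 to 0.075 for hydropathy, -0.023 to 0.091 for net charge, -0.138 to 0.150 for glycines, -1.21 to 0.931 for the share with a kidney neighbour, -0.026 to 0.0079 for mean kidney neighbours, -7.96 to 3.14 for Trbd2 and -9.27 to 4.41 for the Trbj2 share, and log2 ranges of -0.20 to 0.13 for Trbv5, -0.997 to -0.213 for Trbv13-2, -1.01 to -0.41 for Trbj2-3, -0.29 to 0.54 for Trbj2-1, -0.0225 to 0.0889 for aspartate and -0.21 to 0.14 for glycine. The cause of these turns was not tested. None of these results had passed a test, so the sign of a value near 0 is not settled by 36 to 75 expanded clonotypes per kidney.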
